A study of Mus musculus with 2 samples.

Results

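The peaks described here are the isolated binding sites of the transcription factor IRF4 in CH12.LX cells, meaning sites with no second site nearby. Chromatin was precipitated with an antibody against IRF4 and its DNA sequenced (ChIP-seq) in 2 biological replicates of this untreated mouse B-cell lymphoma line, which the labels give as female and of strain B10.H-2aH-4bp/Wts. There is 1 group and no second condition, the labels say nothing of separate cultures, and a control experiment that they name as possible was not used here. Members were chosen by the measured positions of the peaks. A peak of the optimal list, which the depositors made from both replicates with the irreproducible discovery rate (IDR), was a member if no other optimal summit lay within 100 kb on either side. This took 1171 of the 44047 optimal peaks on chromosomes 1 to 19 and X, and left 42876 others. The comparisons set isolated peaks against these others. Peaks are not independent replicates, so all 95% intervals and p-values cover counting error over peaks only, and the sequencing depth is unknown because the lists hold no reads. The lists hold binding and no expression, so whether a gene named here is active in the line was not analysed here.

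IRF4 is a factor of lymphocytes that is needed for germinal centre B cells and plasma cells. It binds DNA weakly on its own and is known to pair with the ETS factors PU.1 or Spi-B on ETS-IRF composite elements (EICE), with BATF and JUN on AP-1-IRF composite elements (AICE), and, at high levels, with a second IRF on tandem IRF elements of the interferon response type. Many regulatory regions of B cells hold clusters of binding sites, and a site that stands alone is the opposite case.

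The sequences below reach 50 bases to each side of isolated summits of the deposited mm9 list, the build for which genome sequence was at hand, with the same rule applied within that list. They are given on the plus strand, and none lay in an exon. The first 8 are the strongest isolated mm9 peaks with an IRF element or a CTCF motif, shown because IRF elements carry the sequence difference described further on, while CTCF motifs did not differ past the threshold. Capitals mark the matched element. In introns of Numb (chr12:85216211-85216311), Egflam (chr15:7167139-7167239), Atp2b2 (chr6:113799961-113800061) and Mipol1 (chr12:58565797-58565897) it is an EICE. Between genes near Eci2 (chr13:35223400-35223500) it is a tandem IRF element. In 5730522E02Rik (chr11:25748981-25749081) there is one of each. Near Iyd (chr10:6773345-6773445) it is a motif of CTCF, the insulator factor. In Col6a3 (chr1:92667850-92667950) an AP-1 site and an IRF site stand 4 bases apart, which is an AICE.
Numb: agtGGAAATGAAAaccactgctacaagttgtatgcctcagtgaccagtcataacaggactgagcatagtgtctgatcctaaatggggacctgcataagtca
near Eci2: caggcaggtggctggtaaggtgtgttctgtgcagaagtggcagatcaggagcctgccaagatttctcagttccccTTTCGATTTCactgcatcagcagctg
5730522E02Rik: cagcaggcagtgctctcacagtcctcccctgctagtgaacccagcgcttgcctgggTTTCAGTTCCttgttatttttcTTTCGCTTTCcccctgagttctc
Egflam: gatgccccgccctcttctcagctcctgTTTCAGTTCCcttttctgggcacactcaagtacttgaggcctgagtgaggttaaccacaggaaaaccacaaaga
near Iyd: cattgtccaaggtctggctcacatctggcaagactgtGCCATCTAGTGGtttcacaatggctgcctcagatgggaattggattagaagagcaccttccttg
Atp2b2: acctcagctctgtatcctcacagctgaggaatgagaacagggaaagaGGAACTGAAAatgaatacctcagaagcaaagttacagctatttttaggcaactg
Mipol1: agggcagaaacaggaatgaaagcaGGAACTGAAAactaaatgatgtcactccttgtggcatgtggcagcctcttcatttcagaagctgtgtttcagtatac
Col6a3: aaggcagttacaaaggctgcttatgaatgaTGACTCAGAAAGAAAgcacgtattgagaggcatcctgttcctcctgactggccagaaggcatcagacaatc

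The 4 strongest isolated mm9 peaks with none of the 21 motifs searched are shown next, as examples of binding without a listed element. They lay in Ikzf2 (chr1:69590922-69591022) and between genes near Dio2 (chr12:91814708-91814808), Coch (chr12:52668408-52668508) and Atrnl1 (chr19:57665449-57665549). Of 1472 isolated mm9 peaks looked through for these examples, 482 (32.7%) held none of the motifs within 50 bp of the summit, against 9384 (37.0%) of 25365 other mm9 peaks. That no motif matched says only that these letters are absent from the window.
Ikzf2: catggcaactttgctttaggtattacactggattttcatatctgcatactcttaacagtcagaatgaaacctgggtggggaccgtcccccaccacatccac
near Dio2: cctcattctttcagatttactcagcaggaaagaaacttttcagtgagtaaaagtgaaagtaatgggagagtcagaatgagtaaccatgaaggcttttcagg
near Coch: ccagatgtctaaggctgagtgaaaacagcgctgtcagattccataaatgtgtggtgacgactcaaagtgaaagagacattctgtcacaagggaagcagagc
near Atrnl1: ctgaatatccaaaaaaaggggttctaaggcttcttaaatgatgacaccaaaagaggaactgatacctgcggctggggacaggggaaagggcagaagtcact

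The next 2 sequences are promoters whose annotated window held an isolated summit of the optimal list, from 250 bases before to 50 after the gene start, with sequence and mm10 coordinates from RefSeq on GRCm38.p6. Phf14, a gene of a PHD finger protein, lies on the plus strand (chr6:11925631-11925930), and its window holds an EICE that overlaps a PU.1 match. Oas1c, of the oligoadenylate synthetase family of antiviral genes, lies on the minus strand (chr5:120812465-120812764), and its window holds overlapping tandem IRF matches. Both are printed on the strand of the gene, and capitals mark these matches. The 2 windows were chosen after their motifs were seen. An IRF element was in only 7 of the 87 windows with an isolated summit (8.05%).
Phf14 promoter: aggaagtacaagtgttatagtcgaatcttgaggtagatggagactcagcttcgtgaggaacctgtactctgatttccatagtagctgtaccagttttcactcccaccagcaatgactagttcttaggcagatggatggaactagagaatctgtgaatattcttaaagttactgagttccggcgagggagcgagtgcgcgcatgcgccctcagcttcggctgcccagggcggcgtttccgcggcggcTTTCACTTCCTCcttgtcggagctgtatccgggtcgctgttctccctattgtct
Oas1c promoter: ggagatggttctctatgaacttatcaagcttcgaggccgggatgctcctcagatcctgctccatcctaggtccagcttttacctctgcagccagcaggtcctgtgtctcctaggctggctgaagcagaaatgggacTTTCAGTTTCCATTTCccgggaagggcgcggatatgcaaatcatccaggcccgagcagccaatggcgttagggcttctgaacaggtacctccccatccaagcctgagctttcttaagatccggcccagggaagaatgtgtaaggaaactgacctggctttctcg

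The distance from an isolated summit to the nearest other optimal summit had a median of 161833 bp, with quartiles at 121960 and 234722 bp, beside a median of 3344.5 bp (quartiles 842 and 13062 bp) among the other peaks. The rule itself sets this contrast. Of the members, 525 (44.8%) had their nearest neighbour at 100 to 150 kb, 237 at 150 to 200 kb, 200 at 200 to 300 kb, 130 at 300 to 500 kb, 56 at 500 kb to 1 Mb and 23 farther than that. The closest members to the threshold were a peak in Fam217b at 100011 bp with a signal of 64.6, and the peaks at the starts of Ccnh, the gene of cyclin H, and Rasa1, a Ras GTPase-activating protein, which lay 100014 bp from each other with signals of 39.2 and 27.0. Just past the threshold, a peak with Zmiz1 as its nearest start had a neighbour at 99993 bp and a signal of 52.8, and a pair near Adck1 and Nrxn3 lay 99951 bp apart with signals of 28.2 and 27.2. Signal is the enrichment value that the authors' peak caller gave to a peak, on a scale that is not stated. The 3 members had signals from 27.0 to 64.6 and the 3 peaks just past the threshold from 27.2 to 52.8.

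The 3 loneliest peaks were weak. The first lay between genes on chromosome 6 (76388668 to 76389007, mm10), 853639 bp from the start of Lrrtm1, a neuronal leucine-rich repeat gene, and 3135661 bp from the nearest optimal summit. Its signal was 25.1 in the optimal list, 9.82 in replicate 1 and 15.6 in replicate 2. In the relaxed list pooled from both replicates, a summit 6892 bp away had a signal of 26.0, above that of the member. The rank of that summit, 41502, was within the length of the optimal list, so the member was alone only by the IDR selection. The second lay on chromosome X (62570767 to 62571106) and reached 21.2 (11.2 in replicate 1 and 10.4 in replicate 2), and the third within Ccser1 on chromosome 6 (62014378 to 62014717) with 27.6 (8.64 in replicate 1 and 20.8 in replicate 2). None of these 3 was in the stricter conservative IDR list, although a summit was found in both replicates at each.

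Isolated peaks were found far from gene starts more often than the other peaks, and less often at promoters or inside genes. Of the isolated peaks, 566 (48.3%, Wilson interval 45.5 to 51.2) lay over 100 kb from the nearest start of a protein-coding gene, against 12.5% (12.2 to 12.9) of the other peaks. The odds ratio was 6.53 (5.80 to 7.34, adjusted p = 2.0e-187, two-sided Fisher's exact test with Benjamini-Hochberg adjustment over the 3 location tests). The rule bears on this contrast and the location tests below, because 19.6% of the other summits lay within 1 kb of a start. A member cannot lie within 100 kb of such a summit. How much of each difference the rule sets was not tested. Within 1 kb of a start lay 141 isolated peaks (12.0%, 10.3 to 14.0), against 19.6% (19.2 to 19.98) of the others (odds ratio 0.561, 0.470 to 0.671, exact adjusted p = 1.9e-11). In a gene body and over 1 kb from any start lay 414 isolated peaks (35.4%, 32.7 to 38.1), against 42.4% (42.0 to 42.9) of the others (odds ratio 0.742, 0.657 to 0.838, exact adjusted p = 1.2e-06). The median distance to a start was 91157 bp for isolated and 16326 bp for other peaks. Over 500 kb from any start lay 99 isolated peaks (8.45%), against 283 of the others (0.660%), and 616 (52.6%), against 38.0%, lay neither within 1 kb of a start nor in a gene. Over 100 kb from a start the odds ratio was 3.59 in the mm9 list (28.8% of isolated against 10.1% of other peaks) and 3.98 with a radius of 50 kb. The promoter difference was not called in the mm9 list with its own GENCODE transcript starts, where 16.1% of isolated and 17.6% of other peaks lay within 1 kb (odds ratio 0.902, 0.785 to 1.04, exact adjusted p = 0.16). On mm9, where exons could be told from introns, 36.3% of isolated and 43.8% of other summits lay in an intron, and 7.22% against 7.92% in an exon.

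**Figure D1:**
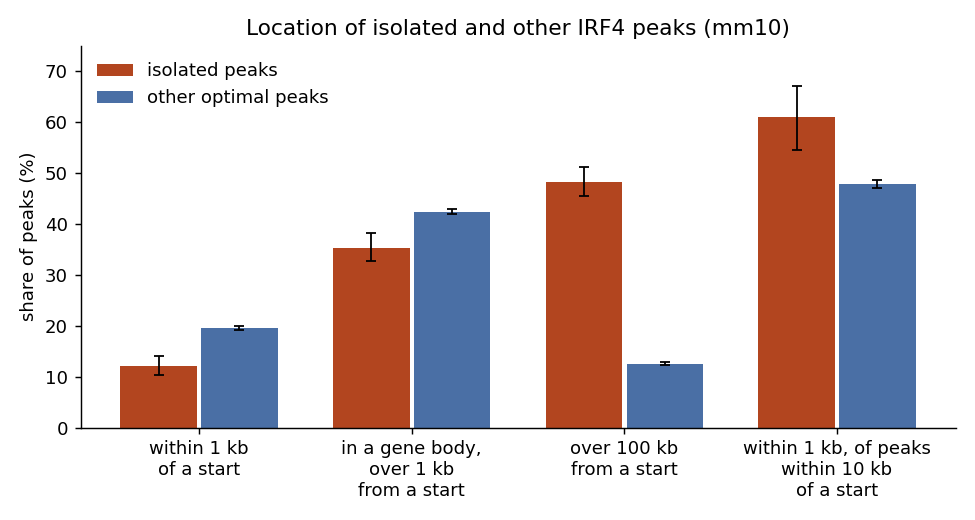
Share of peaks (%) by location for isolated peaks and for all other optimal peaks on mm10, with 95% Wilson intervals as error bars. Isolated peaks are fewer at starts (12.0% against 19.6%) and in gene bodies (35.4% against 42.4%) and more over 100 kb away (48.3% against 12.5%), while among peaks within 10 kb of a start they lie within 1 kb more often (61.0% against 47.9%).

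Among peaks within 10 kb of a start, isolated peaks lay within 1 kb of it more often than other peaks. Of the 231 isolated peaks within 10 kb of a start, 141 (61.0%, 54.6 to 67.1) were within 1 kb, against 47.9% (47.1 to 48.6) of the 17562 other peaks there. The odds ratio was 1.71 (1.31 to 2.23, p = 8.5e-05, two-sided Fisher's exact test, a comparison added after the data were seen). The rule bears on this too. A peak 1 to 10 kb from a start cannot be a member if an optimal summit lies at that start. The part of the rule in the difference was not tested. At peaks within 1 kb of a start the median distance was 82 bp (quartiles 29 and 199 bp) for isolated and 142 bp (52 and 395 bp) for other peaks. Near a start of a long non-coding RNA gene, within 1 kb, lay 25 isolated peaks (2.13%), against 3.83% of the others.

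The strongest promoter member lay 639 bp inside Phkb (chromosome 8, 85841541 to 85841698), a subunit of phosphorylase kinase. Its signal was 201.003, with 90.4 in replicate 1 and 109.9 in replicate 2. The Phf14 promoter printed above reached 129.0 (58.6 in replicate 1 and 71.5 in replicate 2) with the summit 11 bp from a start, and Stx16, the gene of a Golgi syntaxin, had 120.1 (45.7 in replicate 1 and 72.2 in replicate 2) with the summit 24 bp from one. All 10 strongest promoter members were in the conservative list, and 9 of them had the higher signal in replicate 2. Csn3, which encodes kappa-casein of milk, followed with 119.3, then Cep120, a centrosome gene, with 111.0. Ugt1a6a, a glucuronosyltransferase gene within the span of Ugt1a6b, had 100.3. Btc, the gene of the growth factor betacellulin, had 97.3, the olfactory receptor gene Olfr1509 had 97.2, and Oas1c had 96.9 (48.4 in replicate 1 and 52.0 in replicate 2). Dhcr7, of the last step of cholesterol synthesis, had 94.1.

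Promoter windows with an isolated summit were rich in CpG, like those with another summit. There were 87 such windows of 84 genes, and 94.3% of them held 10 or more CpG, against 89.5% of the 4096 windows with another optimal summit and 49.3% of the 16862 with none. Their GC content averaged 58.7% ± 6.99 (SD), against 61.1% ± 7.98 and 55.2% ± 12.0. The ETS promoter motif CCGGAAGT was in 13.8% of windows with an isolated summit, 13.8% of windows with another summit and 3.07% of windows with none, and in 5.20% of all 21045 windows. An IRF element was in 7 windows with an isolated summit (8.05%), against 6.42% with another summit and 5.73% with none, and in 5.88% of all.

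The strongest isolated peak of all lay within Ikzf2, which encodes Helios, a zinc finger factor of the Ikaros family known from lymphocytes. It was at chromosome 1, 69544286 to 69544518, 142935 bp into the gene from the nearest start, and its signal was 311.1, with 128.8 in replicate 1 and 186.1 in replicate 2. The nearest other optimal summit was 161833 bp away. Next came a site between genes on chromosome 1 (30793135 to 30793313) 80714 bp from the start of Phf3 with 282.5 (129.5 in replicate 1 and 153.1 in replicate 2), and one on chromosome 13 (35131499 to 35131701) 137439 bp from the start of Eci2, a fatty acid oxidation gene, with 273.3 (123.7 and 146.1 in replicates 1 and 2). A peak 424329 bp from Cntn5, a neural adhesion gene, had 270.6 (117.4 in replicate 1 and 154.0 in replicate 2), and one 241450 bp from the nearest start of Hivep2, a zinc finger factor gene, had 251.5 (125.3 in replicate 1 and 129.1 in replicate 2). All 12 strongest members were in the conservative list and all 12 had the higher signal in replicate 2. Only 3 of the 12 lay in a gene, namely those in Ikzf2, in Egflam, a matrix protein gene (249.97), and in Col6a3, a collagen VI chain gene (243.8). The other 5 were nearest to the starts of Fbxo33 (241.4), the metabotropic glutamate receptor gene Grm3 (240.0), the potassium channel gene Kcnj6 (228.4), the retinoic acid receptor gene Rarb (216.5) and the ERK phosphatase gene Dusp6 (212.1). Of these 5, only the Kcnj6 peak was within 50 kb of a start, at 12484 bp.

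Isolated peaks were not weak as a class, but very strong ones were few among them. Their median signal was 40.5 (quartiles 29.7 and 61.1, highest 311.1), beside 41.4 (29.4 and 66.3, highest 480.4) among the other peaks. Of the isolated peaks 262 (22.4%, 20.1 to 24.8) were in the strongest quartile of the list, against 25.1% of the others, and 24.51% against 25.01% in the weakest quartile. A signal of 100 or more was reached by 121 isolated peaks (10.3%), against 12.9% of the others, and 250 or more by 5 (0.427%), against 663 (1.55%). In the conservative list were 847 of the isolated peaks (72.3%) and 72.3% of the others. With summits within 500 bp merged, it held 72.4% of isolated and 75.2% of other peaks, and the median signals were 40.3 and 43.4. These values come from the experiment that chose the members and are given with no test. At promoters the share in the strongest quartile was 22.7% for isolated and 14.5% for other peaks, while over 100 kb from a start it was 24.9% for isolated and 31.4% for other peaks.

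The replicates both held most isolated peaks. A summit within 100 bp was found in replicate 1 for 1117 members (95.4%, against 89.5% of the others), in replicate 2 for 1158 (98.9%, against 94.6%) and in both for 1106 (94.4%, against 85.2%). Some optimal summits lie within 500 bp of another, and merging them removed 3114 of the 44047 peaks. The rule keeps such summits out of the isolated peaks. With such summits merged, 93.4% of isolated and 89.0% of other peaks were matched in both. The median signal of matched isolated peaks was 17.2 in replicate 1 and 24.4 in replicate 2, beside 18.5 and 27.7 among the other peaks. Replicate 2 over replicate 1 on the log2 scale had its median at 0.48 (SD 0.63) for the 1106 isolated peaks and at 0.53 (SD 0.66) for the others, and replicate 2 was higher in 894 (80.8%) of the isolated peaks, against 82.9% of the others. The Spearman correlation across peaks was 0.671 for isolated and 0.718 for other peaks, as a description, since the lists and the matching share their peaks.

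**Figure D2:**
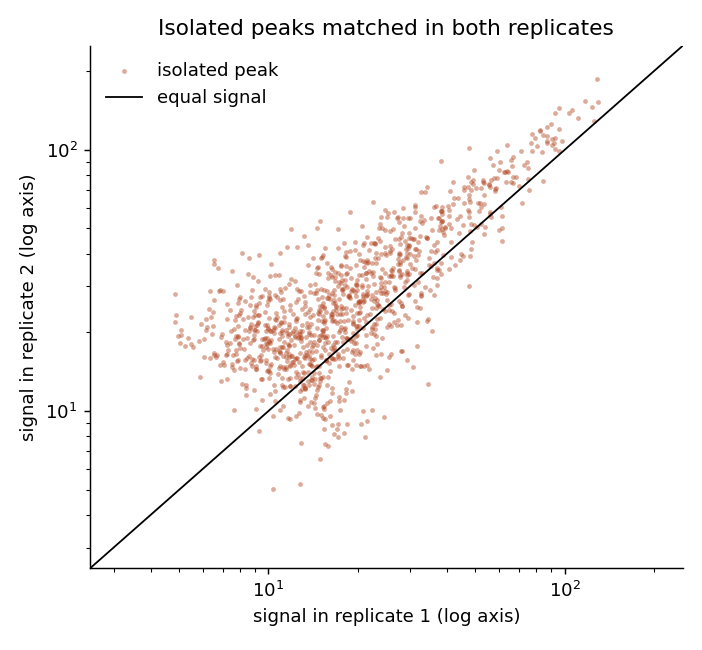
Signal of the 1106 isolated peaks matched in both replicates, replicate 2 against replicate 1, on log axes. Each point is 1 peak and the line marks equal signal. Most points (80.8%) lie above the line, the strongest form a narrow band mostly above it, and the weak ones spread widely.

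Some strong members differed between the replicates by more than the rest. Among the 293 members in the strongest quartile of the isolated peaks, the largest excess in replicate 2 was at a peak in Kalrn, which encodes an exchange factor of small GTPases, with 11.9 in replicate 1 and 49.8 in replicate 2. The summit 5 bp from the start of Ddx60, an interferon-induced helicase gene, had 14.9 in replicate 1 and 53.3 in replicate 2, and a peak in Cdcp3 had 13.1 and 46.7 in replicates 1 and 2. In the other direction, a peak 183263 bp from the start of Prlhr, a neuropeptide receptor gene, had 47.6 in replicate 1 and 30.03 in replicate 2. One near Mvb12b had 61.5 in replicate 1 and 44.9 in replicate 2, and the Cep120 promoter had 61.6 in replicate 1 and 50.1 in replicate 2. With 1 value per replicate these differences have no test.

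Each replicate was also taken by itself, as its 44058 strongest peaks. In replicate 1, 883 members (75.4%, against 72.9% of the others) were in this list. Of all members, 652 (55.7%) were in it with no further summit within 100 kb. In replicate 2 the list held 974 members (83.2%, against 79.4% of the others), of which 744 (63.5% of all members) stood alone. Present and alone in both were 465 (39.7%). The relaxed pooled list, which reaches down to background, still put a median of 13 summits (quartiles 7 and 19, highest 53) within 100 kb of an isolated peak, beside 55 (38 and 76) around the others. There were none around 20 members. The strongest of these neighbours had a median signal of 18.9 around isolated and 134.5 around other peaks. It was stronger than the member itself for 67 members (5.72%), against 86.6% of the others. For 217 members (18.5%) its rank in the pooled list was within the length of the optimal list, so these were alone only by the IDR selection. Around the other peaks its rank was within that length for 99.5%, so the rule bears on the contrasts with them. Around the Ikzf2 peak there were 26 pooled summits, of which the strongest, 7396 bp away, had a signal of 26.3. The rank of that summit, 40931, was within the length of the optimal list, so the Ikzf2 peak too was alone only by the IDR selection. Among the strongest peaks of each replicate, 1 further summit lay within 100 kb of it.

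Chromosome X had the highest share of isolated peaks and chromosome 11 the lowest. On X, 73 of 596 optimal peaks (12.2%) were isolated, at 3.66 optimal peaks per Mb, while on chromosome 11 it was 41 of 4651 (0.882%) at 39.2 per Mb. Chromosome 16 had 31 of 2241 (1.38%) at 23.7 per Mb, chromosome 18 had 4.75% at 14.9 per Mb and chromosome 12 had 4.12% at 14.6 per Mb. Isolated peaks per Mb differed less, at 0.448 on X and 0.345 on chromosome 11. The share follows from the density that the rule reads and is a description. Copy number of the chromosomes in this line was not tested.

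**Figure D3:**
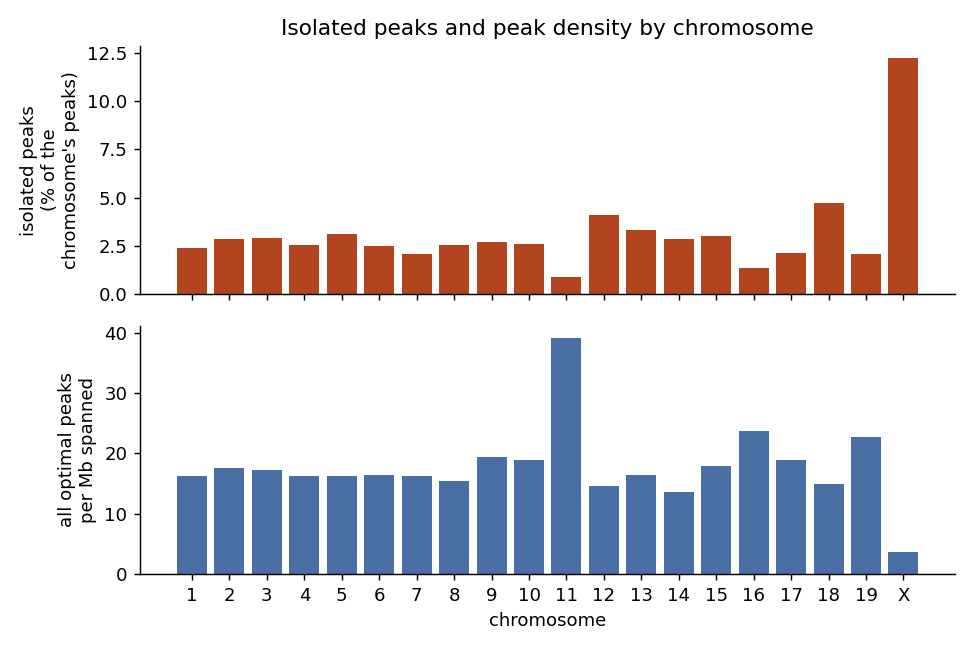
Isolated peaks as a share (%) of the optimal peaks of each chromosome (upper bars) and all optimal peaks per Mb between the first and last summit (lower bars). X stands highest in the upper bars (12.2%) and lowest in the lower ones (3.66 per Mb), and chromosome 11 is the reverse (0.882% and 39.2 per Mb).

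The genes that held isolated peaks were long. The host gene had a median length of 196610 bp for isolated and 68191 bp for other peaks. Of 461 host genes, 425 held 1 isolated summit, 32 held 2 and 4 held 3. The 4 were Cacna1c, the gene of an L-type calcium channel, Cdh12, a cadherin gene, Celf2, of an RNA-binding splicing regulator, and Dlg2, of a synaptic scaffold. Cacna1c spans 610145 bp and its isolated peaks had signals of 33.6, 33.6 and 69.9, the second of which had no match in replicate 1. Those of Cdh12 had 22.9, 59.0 and 107.4, those of Celf2 had 22.7, 23.3 and 191.8, and those of Dlg2, which spans 1973059 bp, had 42.1, 46.3 and 69.6. Of the genes with a pair of isolated peaks, the rule for naming took Sema3a, a guidance factor gene, with 32.4 and 202.1, and Ppp1r9a, the gene of the actin-binding protein neurabin, with 38.0 and 140.1. In Celf2, Sema3a and Ppp1r9a 1 peak was thus over 3 times as strong as the next.

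Of all 20880 protein-coding genes with a start, 585 (2.80%) had an isolated summit in the body or within 10 kb of a start. Any optimal summit was there for 12269 (58.8%). The gene lists below were chosen with earlier results of these data known, so their counts are descriptions with no test. Glutamate and GABA receptor genes, of neuronal synapses, had isolated peaks in 10 of 38 genes (26.3%). Among these were Gabra3, Gabrb1, Gria1, Gria3, Gria4, Grik4, Grin2a, Grin3a and Grm5, and 20 genes of the list had any summit. Adhesion genes of the immunoglobulin and cadherin families had them in 6 of 49 (12.2%), namely Cadm1, Cdh12, Cntn5, Negr1, Nrcam and Opcml. The median length of these genes was 224080 bp for the receptor list and 332111 bp for the adhesion list, beside 17446.5 bp over all genes, and the part of length in the counts was not tested. Ribosomal protein genes had 4 of 84 (4.76%), solute carrier genes 9 of 347 (2.59%), homeobox and SOX genes 2 of 137 (1.46%), and olfactory and vomeronasal receptor genes 7 of 1456 (0.481%).

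Genes of B cells had isolated peaks at about the share of all genes. Of 49 B-cell identity and signalling genes, 48 had an optimal summit and 2 (4.08%) an isolated one, beside 2.80% over all genes, which were Ikzf2 and Bank1, the gene of a scaffold protein of B-cell receptor signalling. The Bank1 peak was weak, at 29.9 in the optimal list (13.0 in replicate 1 and 14.9 in replicate 2), and lay 224911 bp from the nearest Bank1 start. Of 18 known IRF4 target genes 17 had a summit and none an isolated one. Interferon-stimulated genes had 1 of 38 (2.63%), Ddx60, and the 50 interleukin and TNF family genes had none, although 34 of them had a summit. These counts are read beside 2.80% over all genes and carry no test.

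In the mm9 list, isolated peaks held IRF elements more often than the other peaks. The peaks isolated in that list are not the same set as the mm10 members. An IRF element was an EICE (GGAA, any 2 bases, GAAA), a tandem IRF element (GAAA, any 2 bases, GAAA) or an AICE with the IRF site directly beside the AP-1 site TGANTCA or 4 bases from it, on either strand and at most 50 bp from the summit. EICE and tandem matches can overlap each other, and every AICE holds an AP-1 match. Of 1537 isolated peaks in the mm9 list, 378 (24.6%, 22.5 to 26.8) held at least 1, against 15.5% (15.1 to 16.0) of 26134 others (odds ratio 1.78, 1.57 to 2.00, adjusted p = 1.3e-17 by Fisher's exact test with adjustment over 23 comparisons). In windows of the same width 300 bp to the side the shares were 2.41% and 2.34%. Summits of the mm9 list within 500 bp of each other were not merged for the motifs. The rule keeps any such summits out of the isolated peaks, and their part in the difference was not tested. Of the 23 comparisons 8 (34.8%) passed the threshold of 0.05, of which 6 were higher and 2 lower in isolated peaks.

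Each kind of IRF element was more frequent at isolated summits. EICE was at 204 isolated peaks (13.3%, against 8.41% of the others; odds ratio 1.67, 1.43 to 1.94, adjusted p = 7.0e-09, Fisher's exact test). Tandem IRF elements were at 8.13%, against 5.65% (odds ratio 1.48, exact adjusted p = 7.2e-04). The AICE with a gap of 4 bases was at 2.28%, against 1.05% (odds ratio 2.20, exact adjusted p = 5.9e-04), and the adjoining form at 1.95%, against 1.08% (odds ratio 1.82, adjusted p = 0.013), which lost its call by the same exact test in windows of 25 bp (adjusted p = 0.2) and with a radius of 200 kb (adjusted p = 0.14). AP-1 sites alone or within an AICE were at 19.5%, against 15.8% (odds ratio 1.28, exact adjusted p = 0.0012). The EICE letters written in reverse order, a control, were at 1.17% and 0.907% (exact adjusted p = 0.44). The same 2 bases led between the ETS and IRF sites of an EICE in both classes, GT in 34.1% of 208 matches at isolated peaks and 32.2% of 2230 at other peaks, and CT in 29.33% and 24.98%. The median distance of an EICE from the summit was 15 bp for isolated and 15.5 bp for other peaks.

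Other motifs were less frequent at isolated peaks or did not pass. NF-kB motifs were at 2.34% of isolated and 3.49% of other peaks (odds ratio 0.663, adjusted p = 0.04, Fisher's exact test). The CAGGTG form of the E-box, a site of E2A and ZEB proteins, was at 7.74%, against 10.3% (odds ratio 0.732, exact adjusted p = 0.0042). Neither of these held under all alternatives. CTCF motifs were at 2.93%, against 4.02% (odds ratio 0.721, 0.532 to 0.975, exact adjusted p = 0.08), and PU.1 motifs at 5.34%, against 4.90% (odds ratio 1.09, 0.869 to 1.38, adjusted p = 0.62). GC content of the windows was 47.6% ± 8.71 (SD) at isolated and 50.01% ± 8.86 at other peaks.

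**Figure D4:**
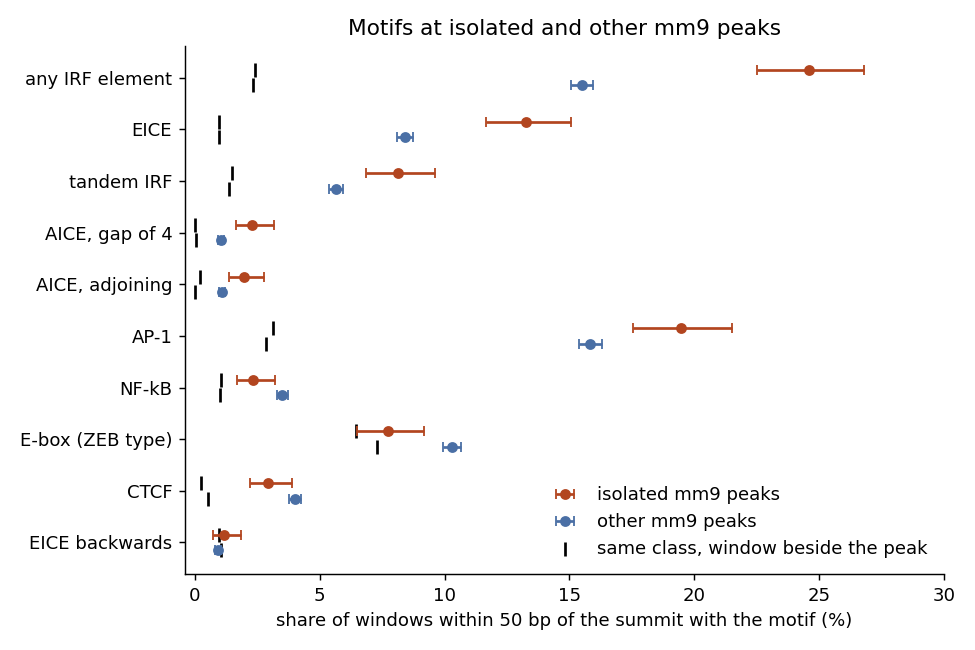
Share of windows (%) within 50 bp of an mm9 summit that hold each motif, at isolated and at other peaks, with 95% Wilson intervals. Ticks give the share in windows 300 bp to the side of the same peaks, and the E-box of ZEB type is CAGGTG. Each IRF element and AP-1 lie to the right at isolated peaks (any IRF element 24.6% against 15.5%), NF-kB and the E-box to the left.

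The excess of IRF elements was seen at all signal levels and distances listed. From the weakest to the strongest quartile of the mm9 list, an IRF element was at 18.3%, 23.2%, 24.2% and 36.1% of isolated peaks, against 9.60%, 11.2%, 15.3% and 25.7% of other peaks. Within quartiles of signal the combined odds ratio was 1.92 (1.70 to 2.18). By distance to the nearest start the shares were 12.5% of isolated and 9.14% of other peaks within 1 kb, 21.5% and 16.4% at 1 to 10 kb, 25.6% and 16.8% at 10 to 100 kb, and 31.6% and 18.4% over 100 kb away. Within these bins the combined odds ratio was 1.71 (1.52 to 1.94), and within deciles of GC content beside the window it was 1.72 (1.52 to 1.94). At promoters the Wilson intervals of the isolated and other peaks overlapped (8.95 to 17.2 and 8.34 to 10.01). At 1 to 10 kb they overlapped as well (16.8 to 27.2 and 15.5 to 17.2).

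**Figure D5:**
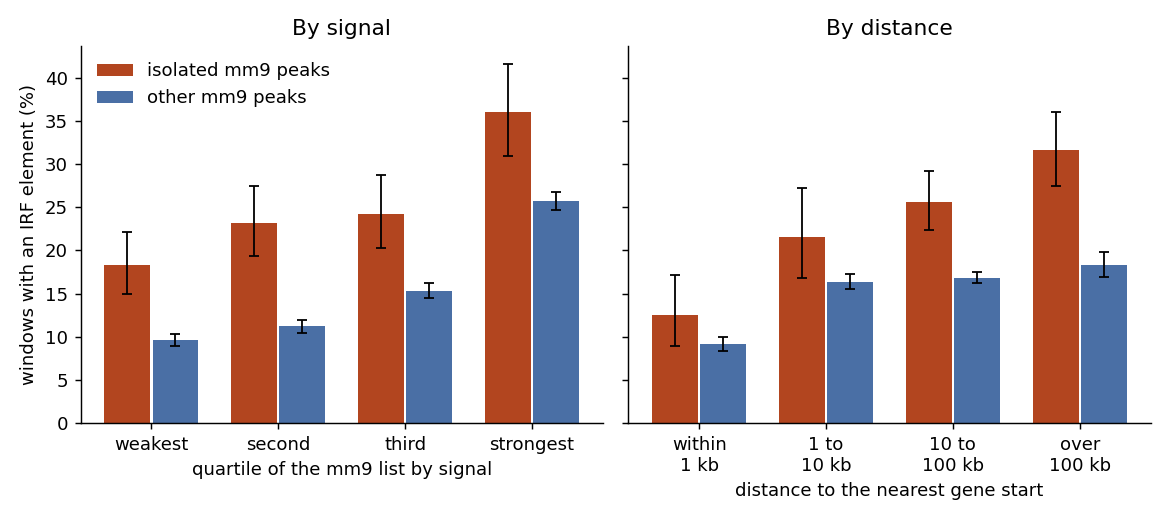
Share of mm9 windows (%) with an IRF element at isolated and at other peaks, by quartile of signal (left) and by distance to the nearest gene start (right), with 95% Wilson intervals. Isolated peaks stand above the others in each pair, from 18.3% against 9.60% in the weakest quartile to 36.1% against 25.7% in the strongest.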

How the data were processed

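IRF4 ChIP-seq of CH12.LX, 2 biological replicates in 1 group, was analysed from 6 deposited peak lists. Per the deposited file descriptions, relaxed lists of each replicate (215095 and 300000 peaks) and of both pooled (300000) were made on mm10, and the optimal (44058) and conservative (35879) IDR lists from them. The mm9 list (27671) was called on both replicates together. The sources used here give neither the aligner, nor the peak caller, nor read numbers. The unit used was the signal value the authors deposited for each peak, used only within a list or at peaks matched between replicates.

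Summit positions were computed from the start and the offset of each peak. Gene starts were those of 20880 of 21631 RefSeq protein-coding genes of GRCm38.p6: all starts in the promoter table for 17274, and for 3606 the gene end given by the strand of the like-named GENCODE gene. The shortest gene over a summit was its host. As no mm10 sequence was at hand, motifs were searched in the mm9 list with the rule applied within it, and coordinates were not converted. Besides the motifs named in the results these were the octamer, EBF1, RUNX, NFY, SP/KLF, NRF1, CRE, GATA, STAT, YY1 and CAGCTG. Of these, none passed the threshold.

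Differences in location and motif shares were tested with Fisher's exact test (two-sided), with Woolf intervals of odds ratios, Mantel-Haenszel odds ratios within strata and Benjamini-Hochberg adjustment at 0.05. Intervals of shares are Wilson's. Signals, replicates, neighbourhood and gene lists were described without tests. Members and gene lists were chosen with earlier results of these data known. Named were the 12 strongest isolated peaks, the 6 genes with most, the 10 strongest at promoters, each B-cell or IRF4 target gene with one, the 3 with the largest replicate ratio each way in the strongest quartile, the 3 most isolated and 3 on each side of the threshold. For sequences, 8 with and 4 without motifs were taken, with some peaks left out, and 2 of the promoter windows, chosen after their motifs were seen. Gene list members with an isolated summit were named for the receptor, adhesion, B-cell and interferon-stimulated lists, except for an item that is not reported here. Radius, list, merging, strata, window and single replicates were varied, though summits were not merged for the motifs. The code was tested on simulated data. The software was scipy 1.17.1, pandas 2.3.3, numpy 2.4.6 and matplotlib 3.10.9 under Python 3.11.15.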

Additional observations from a re-analysis of the deposited data

How the results depend on the processing

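The gene body and over 100 kb shares kept their direction and their side of the threshold under all 11 alternatives each, and the promoter share under 12 of 13. Odds ratios ranged from 0.635 to 0.803 for gene bodies, from 3.59 to 9.55 over 100 kb away and from 0.435 to 0.902 at promoters. The exception was the promoter share in the mm9 list (0.902, exact adjusted p = 0.16), an alternative chosen after seeing the data, and the cause was not tested. With only the strongest peaks of 1 replicate, promoter odds ratios were 0.521 to 0.614. Among peaks within 10 kb of a start the promoter odds ratio stayed above 1 in all 9 alternatives (1.62 to 2.18). All these location alternatives apply a neighbour rule, so they cannot show how much of each difference the rule sets. The share of isolated peaks in the strongest quartile, 22.4%, was 19.9% with summits within 500 bp merged, 19.6% over 1 kb from a start, and 18.6% to 21.4% from single replicates. The count of motifs past the threshold, 8, was 5 in windows of 25 bp and 7 to 9 otherwise. EICE, tandem IRF, the AICE with a gap of 4, AP-1 and any IRF element passed under all 8 motif alternatives (any IRF element 1.61 to 2.11). NF-kB lost its call in 4 of 8 (exact or Mantel-Haenszel adjusted p = 0.5, 0.096, 0.19 and 0.064 for windows of 25 bp, a radius of 50 kb, peaks over 1 kb from a start and GC deciles), CAGGTG in 3 (0.89, 0.073 and 0.36 for windows of 25 and 100 bp and a radius of 200 kb) and the adjoining AICE in 2 (0.2 and 0.14 for windows of 25 bp and a radius of 200 kb). Counting gene bodies only, 459 genes held an isolated summit. No paired analysis was possible because the labels give 1 group. Depth per replicate is unknown, the mm9 members are not the mm10 members, and gene starts absent from the annotation are missed.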
